A study of Mus musculus with 10 samples.

Results

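The 10 genes described here encode the enzymes that make hydrogen peroxide, superoxide or nitric oxide on purpose, with their closest partner subunits: Duox1, Duoxa1, Duox2, Duoxa2, Nox1, Noxo1, Noxa1, Nos2, Cyba and Cybb. They were taken by symbol from the 24062 gene symbols counted in every library, and all 10 were present. Jejunum of C57BL/6 mice at postnatal day 5 was sequenced in 2 groups of 5 libraries. WT mice were labelled wild type. KSR23 mice carried an IL-23 cassette (the subunits p19, gene Il23a, and p40, gene Il12b) in the ROSA26 locus behind a floxed stop, which a cre recombinase under the keratin 14 promoter removed, so that keratinocytes were the intended source of the cytokine. The comparison addressed how IL-23 made in keratinocytes alters gene expression in the neonatal jejunum. The study describes the libraries of a group as biological replicates, and p-values measure the spread between these libraries.

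DUOX and NOX enzymes are membrane proteins that pass electrons from NADPH to oxygen on the far side of the membrane. DUOX2 works at the apical face of gut epithelium, where it makes hydrogen peroxide close to bacteria, and reaches the surface only together with its maturation factor DUOXA2. NOX1, the epithelial superoxide producer best known from colon, needs the membrane partner p22phox (Cyba), the organizer NOXO1 and the activator NOXA1, whereas the phagocyte enzyme NOX2 (Cybb) pairs with p22phox and with other cytosolic subunits. NOS2 makes nitric oxide from arginine and is controlled mainly through its transcription.

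Libraries held 25.5 to 60.9 M counts, with M for 1e6, and a floor of 3 counts stood at 0.0492 to 0.118 CPM (counts for every 1 M in the library). The cassette genes were low throughout, with 1 to 14 Il23a counts in WT and 8 to 34 in KSR23, and 0 to 5 against 9 to 40 Il12b counts. Replicates 4 and 5 of both groups stood apart from the other libraries. Each was the highest or the lowest of its group at 8.54 to 18.4% of 9737 genes, against 45.7 to 75.6% for replicates 1 to 3. They lay within the range of replicates 1 to 3 for 9 of the 10 oxidase genes in both WT libraries, for 8 in KSR23 replicate 4 and for 7 in KSR23 replicate 5, and the results are therefore also given for replicates 1 to 3 alone. Whether replicates 4 and 5 are independent of the other libraries of their group was not tested, and each n of 5 and its p-value take them as separate samples. The summed level of Y-linked genes was 16.1 to 207 CPM in the 5 WT libraries and 148 and 84.1 CPM in KSR23 replicates 1 and 4, but 0.0244 to 0.289 CPM in KSR23 replicates 2, 3 and 5. Libraries also differed by GC content. In the GC-richest of 5 equal sets of genes the median deviation from the group mean was -0.69 on the log2 scale in KSR23 replicate 3, -0.48 in WT replicate 1 and 0.44 in WT replicate 2. The epithelial markers Epcam, Vil1, Cdh1, Krt8, Krt20 and Cdx2 were detected in every library. Their summed level did not overlap between the groups, at 1351 to 2906 CPM in WT and 3406 to 5615 CPM in KSR23. Of the 6, 2 (Cdh1 and Krt20) were called higher. The sum does not describe each marker, since Krt20 differed most, with means of 359 (WT) and 1674 CPM (KSR23). Vil1, Krt8 and Cdx2 had higher KSR23 means but were not called. Epcam, also not called, had the lower mean in KSR23 (270 against 367 CPM). CPM of single genes and lists use library totals scaled by the trimmed mean of M-values (TMM). In tissue RNA, more epithelial cells and more RNA of a gene per cell cannot be told apart. The part of the GC and epithelial differences in the results was not tested. The Y-linked share was a covariate in an alternative fit, which called 6 of the 10 oxidase genes.

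Of the 10 genes, 7 rose in KSR23 and none fell at an adjusted p under 0.05 (edgeR likelihood ratio test over 17632 genes, Benjamini-Hochberg). Of all genes tested, 18.5% were called, 9.73% as higher and 8.76% as lower. The genes that rose were Duox2, Duoxa2, Duoxa1, Nox1, Noxo1, Noxa1 and Nos2. Duox1, Cyba and Cybb did not pass the test. In 6 of the 10 (all that rose except Nox1) every KSR23 library lay above every WT library, and among all genes tested 7.41% did so. With replicates 1 to 3 alone, 5 of the 10 were called (Duoxa1, Duox2, Duoxa2, Noxa1 and Nos2), against 3.36% of all genes (2.01% higher). The quasi-likelihood F test of edgeR called the same 7 genes with all libraries, against 15.4% of all genes, and 4 of the 10 with replicates 1 to 3, against 0.812%.

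**Figure D1:**
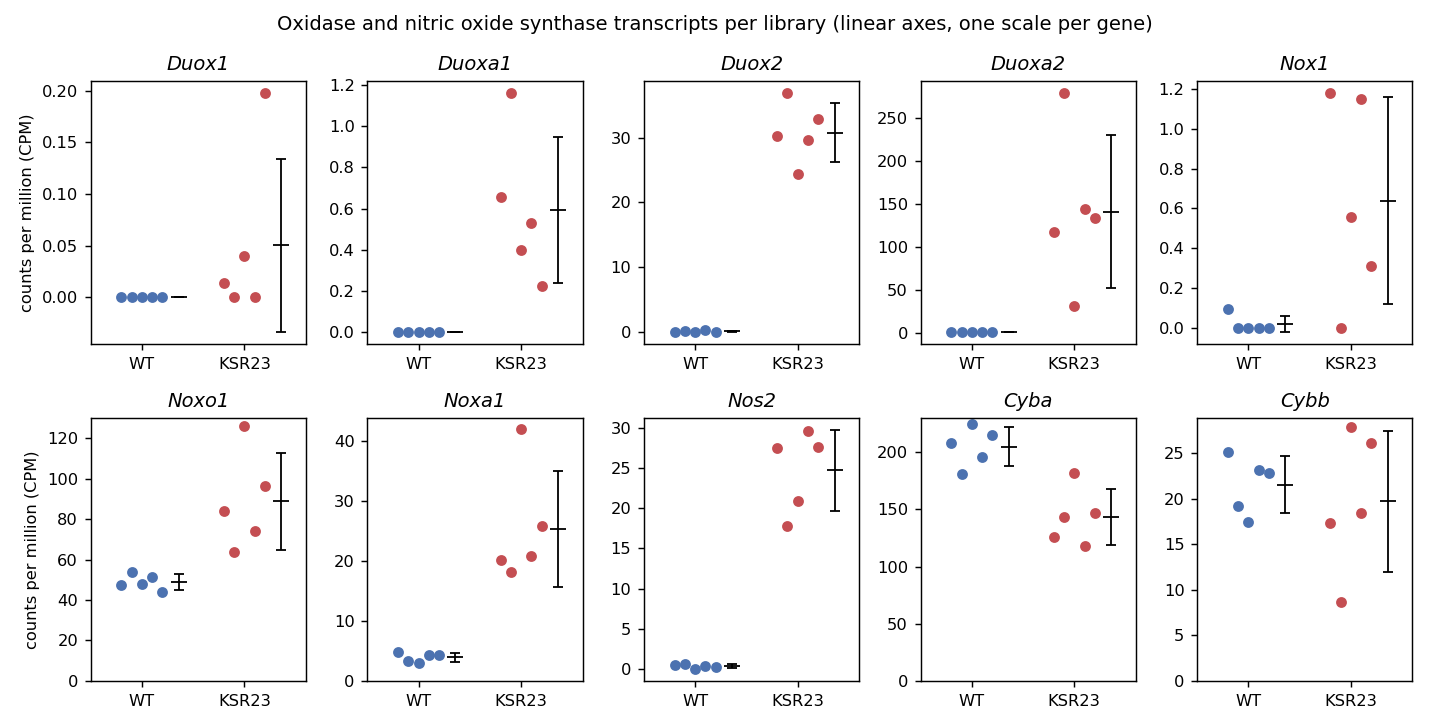
Level of each gene in CPM (vertical axes, linear, with a separate scale for each gene) in the 5 WT libraries (blue) and 5 KSR23 libraries (red), replicates 1 to 5 from left to right, with the mean and SD as black bars. The groups do not overlap for Duoxa1, Duox2, Duoxa2, Noxo1, Noxa1 and Nos2. KSR23 replicate 2 is at 0 for Nox1 and lowest for Cybb.

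Duox2, the catalytic enzyme, was close to absent in WT and moderately expressed in KSR23. WT replicates 1 to 5 had 0, 4, 2, 10 and 0 counts, and KSR23 replicates 1 to 5 had 2127, 1144, 612, 1669 and 1166. All 5 KSR23 libraries were therefore far above the highest WT library. The mean level was 0.101 ± 0.120 CPM in WT and 30.8 ± 4.62 CPM in KSR23 (SD over n = 5 libraries each). The log2 fold change was 8.15 (SE 0.53, edgeR adjusted p = 5.185e-44), and Duox2 ranked 5 by p among the 17632 genes tested. Without WT replicate 4, which held 10 of the 16 WT counts, it was 9.15, and leaving out any other library gave a value of 7.82 or more. The KSR23 libraries ran only from 24.3 to 36.9 CPM, so that their coefficient of variation was 15.0%, the lowest among the 7 genes that rose.

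Duoxa2, the maturation factor that carries DUOX2 to the cell surface, had a low but measurable level in every WT library. The WT libraries gave 28, 26, 13, 19 and 20 counts, and the KSR23 libraries gave 8218, 8670, 783, 8140 and 4755. KSR23 replicate 3 was well below its group and KSR23 replicate 2 above it, with 31.1 and 280 CPM beside 117 to 144 CPM in the other KSR23 libraries. The means were 0.712 ± 0.194 CPM in WT and 141 ± 89.3 CPM in KSR23 (SD over n = 5 libraries each), with a log2 fold change of 7.62 (SE 0.48, edgeR adjusted p = 1.032e-31). In KSR23 replicate 3, Duoxa2 (GC content 54.3%) deviated from the group mean by -1.88 on the log2 scale, and the set of genes of like GC content had a median deviation of 0.12. The part of GC content in the Duoxa2 value was not tested.

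Enzyme and maturation factor rose in the same libraries, but not in a fixed proportion. Each KSR23 library held 3.86, 7.58, 1.28, 4.88 and 4.08 Duoxa2 counts for each Duox2 count (replicates 1 to 5), and per exon length the excess of Duoxa2 was 5.44 to 32.2-fold. The log2 ratio of Duoxa2 to Duox2 was 2.63 ± 1.36 in WT and 1.91 ± 0.95 in KSR23 (SD over n = 5 libraries each). The difference of -0.72 was smaller than the spread between libraries (two-sided exact permutation p = 0.365, adjusted p = 0.511 over the 7 ratios compared), and WT Duox2 counts of 0 to 10 leave the WT ratio imprecise.

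Duoxa1, the maturation factor of the paralog DUOX1, was not detected in WT and was low in KSR23. The WT libraries had 0 counts each, and the KSR23 libraries had 46, 36, 10, 30 and 8. Every KSR23 library thus had reads, and the mean of 0.594 ± 0.355 CPM (SD, n = 5) was at least 5.84-fold higher than a WT floor of 3 counts per library (edgeR adjusted p = 1.891e-09). Under the quasi-likelihood F test on replicates 1 to 3 alone the call was lost (adjusted p = 0.0984). The order of the KSR23 libraries differed from that of Duoxa2, which had 78.3 to 594 counts for each Duoxa1 count. The 2 genes overlap on opposite strands, and how much of the Duoxa1 count came from Duoxa2 was not tested.

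Duox1, the paralogous oxidase, was not detected in WT, and in KSR23 it had 1, 0, 1, 0 and 7 counts. Only replicate 5 rose above the floor, and the gene did not pass the test (edgeR adjusted p = 0.0799). It reached the threshold without KSR23 replicate 4 alone among the settings tried (adjusted p = 0.0490). Within libraries, the log2 ratio of Duox2 to Duox1 was 1.15 ± 1.16 in WT and 8.47 ± 0.95 in KSR23 (SD over n = 5 libraries each). The ratio of Duoxa1 to Duox1 was 2.74 ± 1.64 in KSR23. Since Duox1 was at 0 in every WT library, both ratios rest on the prior count of 2 that was added before taking logs, and no test of either is given.

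The 4 DUOX genes lie side by side on chromosome 2 within 68726 bases (GENCODE M21, build GRCm38/mm10). Duox2 occupies chr2:122279247-122298449 on the minus strand and Duoxa2 chr2:122298900-122302885 on the plus strand, with start sites 451 bases apart and facing away from each other. Duoxa1 occupies chr2:122302191-122313730 on the minus strand and Duox1 chr2:122315672-122347972 on the plus strand, with starts 1942 bases apart. Each enzyme is thus arranged head to head with its own maturation factor. The levels in KSR23 differed widely along the cluster, since both genes of the left pair were above those of the right pair in every KSR23 library. Duoxa1 and Duoxa2 overlap tail to tail by 695 bases, of which 682 are exonic in both. In that overlap the kit, which does not mark strand, cannot assign a read to either gene. Of the 75-base stretches of Duoxa2 transcripts, 40.1% were shared with Duoxa1, and 14.4% of the stretches of Duoxa1 were shared with Duoxa2. Duox1 and Duox2 shared only 4.51% and 3.39% of theirs with each other.

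**Figure D2:**
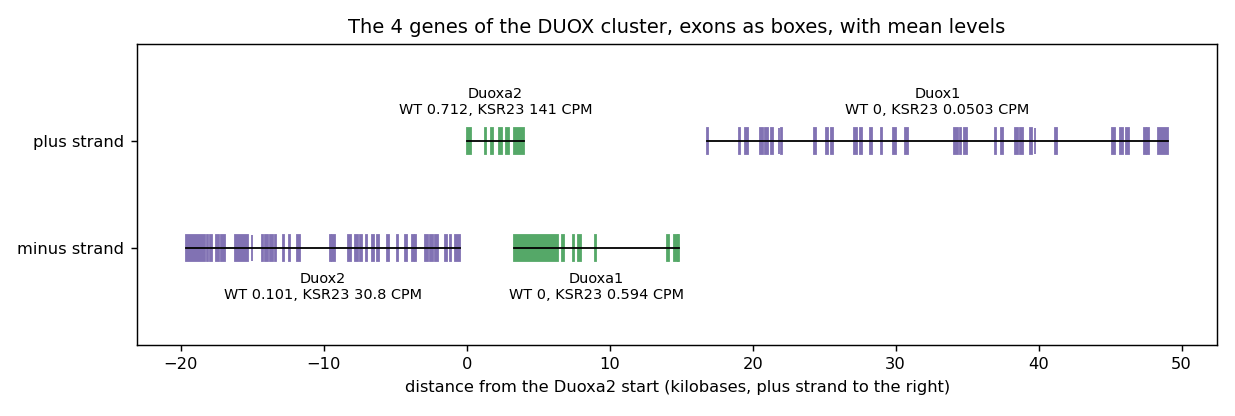
Map of the DUOX cluster, drawn to scale in kilobases from the Duoxa2 start, with exons as boxes (oxidases purple, maturation factors green), strand on the vertical axis and mean CPM of each group (n = 5) beside each gene. Duox2 and Duoxa2 start next to each other and have the high KSR23 means of 30.8 and 141 CPM, and Duoxa1 and Duox1 have means of 0.594 and 0.0503 CPM.

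The 250 bases upstream of the Duoxa2 start are shown because they fill part of the gap between this divergent pair, the members of the set with the largest fitted changes. Capitals mark TGANTCA, the AP-1 type motif, at -168 and TATAAA, the TATA type motif, at -30, counted from the start site, from a RefSeq window (GRCm38.p6) at chr2:122298650-122298899, plus strand.
Duoxa2: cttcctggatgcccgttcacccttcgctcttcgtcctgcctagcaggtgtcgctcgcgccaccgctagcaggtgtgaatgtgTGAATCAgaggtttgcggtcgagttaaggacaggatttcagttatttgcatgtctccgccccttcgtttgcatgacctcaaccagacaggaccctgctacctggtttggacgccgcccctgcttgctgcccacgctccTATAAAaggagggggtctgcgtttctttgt
Windows were found for 9 of the 10 genes, and 5 motifs were searched on both strands after the expression values were known. Not all of these windows are free of transcript sequence, since exons of the GENCODE annotation cover 222 of the 250 bases of the Duox2 window and 173 of the Noxo1 window. Those of Cybb and Nox1 lie before the RefSeq start but inside the gene span that GENCODE gives. TATAAA occurred in 13.6% of all 32851 windows of the same length and in 1 of the 9. TGANTCA occurred in 7.81% of all windows and in 2 of the 9 (Duoxa2 and Cybb). The STAT type motif TTCNNNGAA occurred in 8.30% of all windows and in none of the 9, which says only that these letters are not in these windows. A match describes the letters and is not evidence of a bound site.

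NOX1 and its partner subunits covered a wide range of levels, and the catalytic subunit was the scarcest. Reads of Nox1 numbered 3, 0, 0, 0 and 0 in the WT libraries and 83, 0, 14, 65 and 11 in the KSR23 libraries. KSR23 replicate 2, with 31.2 M counts in all, had no Nox1 read, so the groups overlapped. The KSR23 mean of 0.640 ± 0.519 CPM (SD, n = 5) was at least 6.30-fold higher than the WT floor of 3 counts per library (edgeR adjusted p = 0.00307). The call was lost with replicates 1 to 3 alone (adjusted p = 0.261). The gene lies on chromosome X (chrX:134086421-134221956, minus strand), and 9.62% of its 75-base stretches were shared with Cstf2, a subunit of the mRNA cleavage machinery that overlaps it on the opposite strand and that rose by 1.23 on the log2 scale (SE 0.27).

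Noxa1, which encodes the activator of NOX1, rose in every KSR23 library and in all settings tried. The counts were 154, 92, 82, 148 and 115 in WT and 1412, 564, 1053, 1178 and 912 in KSR23. The highest WT library stood at 4.77 CPM and the lowest KSR23 library at 18.2 CPM. Means were 3.92 ± 0.753 CPM in WT and 25.3 ± 9.64 CPM in KSR23 (SD over n = 5 libraries each), with a log2 fold change of 2.69 (SE 0.33, edgeR adjusted p = 8.989e-13). KSR23 replicate 3 was the highest, at 41.9 CPM. The gene lies at chr2:25085667-25095149 on the minus strand of the same chromosome, outside the DUOX cluster, and shares no 75-base stretch with another gene. Its upstream window (RefSeq, GRCm38.p6, chr2:25095206-25095455, minus strand) is shown because it held a kappaB motif, the site of NF-kappaB type factors, at -249 (capitals). That motif, searched on both strands, occurred in 8.46% of all windows and in 2 of the 9 windows of these genes (Noxa1 and Nox1).
Noxa1: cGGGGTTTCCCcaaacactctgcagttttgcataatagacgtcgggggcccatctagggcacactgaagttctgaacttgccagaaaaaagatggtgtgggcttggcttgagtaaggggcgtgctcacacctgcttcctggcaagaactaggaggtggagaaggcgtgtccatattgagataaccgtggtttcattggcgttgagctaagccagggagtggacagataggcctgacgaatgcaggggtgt

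Noxo1, which encodes the organizer that tethers NOXA1 to the membrane complex, was already well expressed in WT. Counts were 1538, 1528, 1305, 1784 and 1173 in WT and 5901, 1976, 3169, 4195 and 3412 in KSR23. The groups were separated by a narrow margin, with 54.0 CPM in the highest WT library and 63.7 CPM in the lowest KSR23 library. Means were 49.0 ± 3.83 CPM in WT and 88.8 ± 23.99 CPM in KSR23 (SD over n = 5 libraries each), which is 0.86 on the log2 scale (SE 0.27, edgeR adjusted p = 0.0115). The call did not hold without WT replicate 5 (adjusted p = 0.0538), with replicates 1 to 3 alone (adjusted p = 0.455) or with the Y-linked share as a covariate (adjusted p = 0.173). It was also lost with a replicate block (adjusted p = 0.1002). Noxo1 (chr17:24696234-24700529, plus strand) is also the member most exposed to a neighbour. Of its 75-base stretches, 52.6% were shared with Tbl3 on the opposite strand, which itself rose by 0.84 on the log2 scale (SE 0.28, adjusted p = 0.0186). The Noxo1 and Tbl3 counts had a ratio of 1.05 to 1.69 in WT and 0.720 to 1.85 in KSR23, and how much of the Noxo1 count came from Tbl3 was not tested.

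The subunits of the NOX1 complex therefore changed by unequal amounts. There were 9.99 to 16.6 Noxo1 counts for each Noxa1 count in WT and 3.01 to 4.18 in KSR23, and per exon length the excess of Noxo1 was 5.36 to 8.91-fold in WT and 1.62 to 2.24-fold in KSR23, without overlap. This ratio was looked at after the single genes were known and is given with no test. The log2 ratio of Noxo1 to Nox1 was 9.53 ± 0.67 in WT and 7.59 ± 1.73 in KSR23 (SD over n = 5 libraries each, exact permutation p = 0.0714, adjusted p = 0.167). The ratio of Noxa1 to Nox1 differed by -0.13 (exact permutation p = 0.921, adjusted p = 0.921), with Nox1 counts near 0 in WT. Where Nox1 was at 0, both ratios to Nox1 rest on the prior count of 2. With a prior count of 0.5 the differences were -3.15 (Noxo1) and -1.33 (Noxa1). Neither test therefore settles whether these ratios changed.

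Nos2, the inducible nitric oxide synthase, rose from a few reads to a level close to that of Duox2. The WT libraries gave 16, 18, 1, 13 and 7 counts, and those of KSR23 1935, 552, 526, 1673 and 976. The highest WT library stood at 0.636 CPM and the lowest KSR23 library at 17.8 CPM. The means were 0.361 ± 0.229 CPM in WT and 24.7 ± 5.06 CPM in KSR23 (SD over n = 5 libraries each), with a log2 fold change of 6.07 (SE 0.43, edgeR adjusted p = 1.87e-31). The call was kept in all 20 settings that gave it a value. The gene (chr11:78920787-78960254, plus strand) shares no 75-base stretch with another gene. For each Duox2 count the KSR23 libraries held 0.910, 0.483, 0.859, 1.002 and 0.837 Nos2 counts. Of the other nitric oxide synthases, neuronal Nos1 had 3 to 16 counts in WT and 3 to 40 in KSR23 (adjusted p = 0.358), and endothelial Nos3 differed by -0.11 on the log2 scale (SE 0.53, adjusted p = 0.915).

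Cyba, the p22phox chain that NOX1 and NOX2 both need, had the highest mean level per exon length of the 10 genes in both groups and did not rise. In KSR23 its range overlapped with that of Duoxa2, which was the higher of the pair in KSR23 replicate 2. The counts were 6724, 5121, 6130, 6800 and 5737 in WT and 8867, 4458, 4569, 6666 and 5217 in KSR23. In CPM the WT libraries ran from 181 to 225 and the KSR23 libraries from 118 to 182, and the groups overlapped only through WT replicate 2 and KSR23 replicate 3. Means were 205 ± 17.1 and 143 ± 24.6 CPM (SD over n = 5 libraries each), with a log2 fold change of -0.52 (SE 0.23) that missed the threshold (edgeR adjusted p = 0.112). It was called lower by DESeq2 (adjusted p = 0.0248), with library totals in place of TMM (adjusted p = 0.0214) and without KSR23 replicate 3 (adjusted p = 0.0378). Cyba lies at chr8:122424776-122432930 on the minus strand.

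Cybb, the catalytic subunit of the phagocyte NADPH oxidase, did not pass the test. Its reads numbered 811, 543, 475, 804 and 608 in the WT libraries and 1218, 267, 702, 1042 and 925 in those of KSR23. The groups overlapped, and KSR23 replicate 2 was far below the rest at 8.61 CPM against 17.3 to 27.9 CPM in the other KSR23 libraries. The log2 fold change was -0.13 (SE 0.34, edgeR adjusted p = 0.846) and became 0.11 without KSR23 replicate 2 (adjusted p = 0.868). Its 95% interval, from -0.80 to 0.54, excludes changes of the size seen for Nos2 or Duox2. The Cybb window (RefSeq, GRCm38.p6, chrX:9469325-9469574, minus strand) is shown as the contrast to the genes that rose. It held the interferon response type motif, a GAAA pair spaced by 2 bases of any kind, at -168, -124 and -29 and TGANTCA at -139 (capitals, both strands), and the former occurred in 3.44% of all windows and in no other window of these genes.
Cybb: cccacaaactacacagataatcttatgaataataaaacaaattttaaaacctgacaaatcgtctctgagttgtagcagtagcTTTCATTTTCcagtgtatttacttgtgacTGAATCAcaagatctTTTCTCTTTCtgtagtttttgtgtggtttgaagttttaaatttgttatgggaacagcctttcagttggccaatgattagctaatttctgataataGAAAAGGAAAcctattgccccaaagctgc

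Cybb was also set against the cells that express it. The log2 ratio of Cybb to Cyba was -3.26 ± 0.26 in WT and -2.96 ± 0.63 in KSR23 (SD over n = 5 libraries each, exact permutation p = 0.357, adjusted p = 0.511). Without KSR23 replicate 2 it was higher in KSR23 by 0.57 and the groups did not overlap (exact permutation p = 0.00794, the smallest possible). Cybb minus the mean of 9 macrophage and monocyte markers, on the log2 scale, was -0.37 ± 0.16 in WT and -0.48 ± 0.36 in KSR23 (exact permutation p = 0.722, adjusted p = 0.843). Those markers summed to 689 to 816 CPM in WT and 542 to 768 CPM in KSR23, with Itgam and Cd14 called higher and Cd68 lower. Of 6 neutrophil markers in the files, 2 were called higher (Ltf and Elane), and the list summed to 5.85 to 13.5 CPM in WT and 20.7 to 56.1 CPM in KSR23, where Ltf made up most of it. In WT, S100a8 and S100a9 had higher means than Ltf (3.35 and 2.53 against 1.89 CPM). Elane was at 0 in each WT library and at 0 to 7 counts in KSR23. The calprotectin genes S100a8 and S100a9 stayed at 41 to 182 counts in the 10 libraries (adjusted p = 0.935 and 0.592). Both eosinophil genes called, Prg2 and Ccr3, were lower in KSR23. Smooth muscle markers summed to 1197 to 2447 CPM and 1163 to 1511 CPM. Genes listed as pancreatic acinar markers summed to 98.7 to 203 CPM in WT and 5.87 to 15.6 CPM in KSR23, nearly all Cela1 and Ctrb1, and 5 lymphocyte markers to 6.31 to 7.67 CPM and 4.97 to 11.7 CPM. The part of these cell types in the results was not tested.

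**Figure D3:**
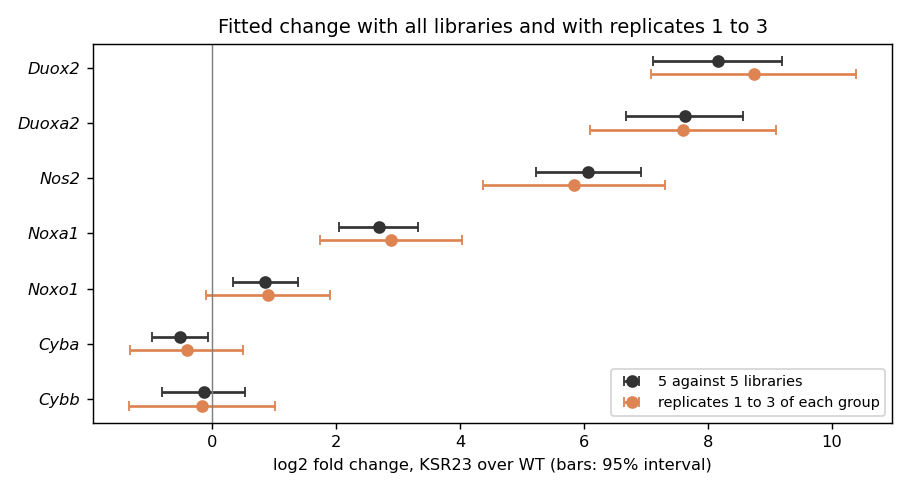
Log2 fold change of KSR23 over WT (horizontal axis, bars of the 95% interval) for the 7 genes with a finite error and a count above the floor in some WT library, with all libraries (5 against 5, dark) and with replicates 1 to 3 of each group (orange). Duox2, Duoxa2, Nos2 and Noxa1 lie right of 0 in both, Noxo1 reaches 0 with replicates 1 to 3, and Cyba and Cybb lie left of 0 or on it.

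To compare the oxidases with each other, levels were divided by exon length. In WT the order of the catalytic NADPH oxidases by mean level, in CPM per kilobase of exon, was Nox4 (6.21 ± 2.78), Cybb (3.71 ± 0.54), Duox2 (0.0149 ± 0.0177) and Nox1 (0.00562 ± 0.0126), with Duox1 at 0. The ranges of Nox4 and Cybb overlapped, as did those of the 3 lowest. In KSR23 it was Duox2 (4.55 ± 0.68), Cybb (3.39 ± 1.33), Nox4 (0.389 ± 0.231), Nox1 (0.193 ± 0.157) and Duox1 (0.00955 ± 0.0159), and neighbours in this order overlapped except Cybb and Nox4. Of the summed level of the 5 genes, Duox2 made up 0 to 0.431% in WT libraries and 39.3 to 77.6% in KSR23 libraries, and the share of Nox4 was 48.8 to 69.1% in WT and 1.25 to 6.56% in KSR23. Cybb had 30.7 to 50.9% in WT and 21.1 to 52.6% in KSR23, which overlapped. Nos2, at 5.59 ± 1.15 CPM per kilobase in KSR23, overlapped with Duox2.

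**Figure D4:**
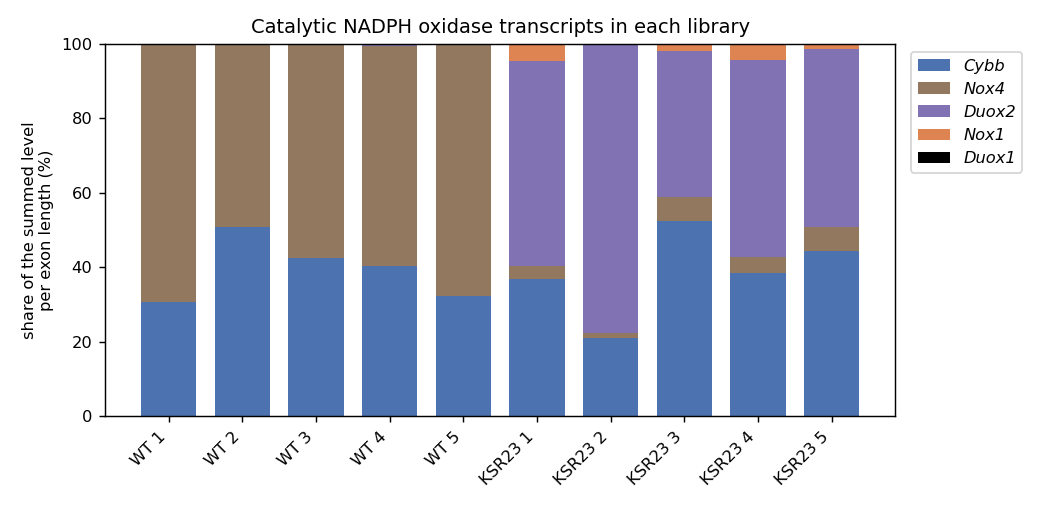
Share of each catalytic NADPH oxidase gene in their summed level per exon length (vertical axis, percent) in each of the 10 libraries. Nox4 and Cybb fill the WT bars, and in KSR23 the share of Nox4 is 1.25 to 6.56% and that of Duox2 39.3 to 77.6%.

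Nox4, an oxidase that makes hydrogen peroxide without cytosolic subunits and is typical of mesenchymal, vascular and renal cells, was 1 of 2 genes called among the other NADPH oxidase partners. Its counts were 2666, 759, 932, 1719 and 1866 in WT and 169, 23, 121, 163 and 200 in KSR23. All WT libraries were above all KSR23 libraries. The log2 fold change was -4.00 (SE 0.49, edgeR adjusted p = 3.727e-11). It was also called with replicates 1 to 3 alone (adjusted p = 0.000149). Of the 7 listed partners matched by symbol, 6 could be tested, and Ncf1, Ncf4, Rac1 and Rac2 did not pass the test. Nox3, the inner ear oxidase, was at 0 in each library, which allows no more than the floor of 3 counts. The median log2 fold change of the 6 was -0.24, beside 0.03 over all genes tested.

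Among 5 haem peroxidases, enzymes that use hydrogen peroxide as their substrate, 3 could be tested and Lpo (lactoperoxidase) was called higher, on 0 to 2 counts in WT and 1 to 23 in KSR23 (edgeR adjusted p = 0.0192). It lost the call under the quasi-likelihood F test (adjusted p = 0.0615) and with replicates 1 to 3 alone (adjusted p = 0.260). Epx was at 0 throughout.

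Of 13 tested genes of arginine supply, cofactor synthesis and nitric oxide control, 1 rose and 1 fell. Slc7a1, the main cationic amino acid transporter, rose by 0.99 on the log2 scale (SE 0.34, adjusted p = 0.0278), from 9.47 ± 3.85 to 18.9 ± 4.71 CPM (SD over n = 5 libraries each). With replicates 1 to 3 alone it was not called. Gch1, the first enzyme of the cofactor tetrahydrobiopterin, ran from 130 to 3188 counts in WT and from 163 to 11317 in KSR23 (adjusted p = 0.855), so its change could not be resolved. The median of the list was -0.30.

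Of 16 genes that remove superoxide and peroxide, 1 rose and 2 fell, with a median of -0.35. Gpx2, the gastrointestinal glutathione peroxidase, rose by 3.96 on the log2 scale (SE 0.36, edgeR adjusted p = 1.233e-19), from 1393 to 4856 counts in WT to 53037 to 75636 in KSR23. Gpx3, the secreted glutathione peroxidase, fell by 1.501 on the log2 scale (SE 0.38, adjusted p = 0.00156), and Prdx5 fell by 0.86 on the log2 scale (SE 0.24, adjusted p = 0.00503). Both had no overlap between the groups. Catalase, Gpx1 and the superoxide dismutases Sod1, Sod2 and Sod3 did not pass the test, with log2 fold changes between -0.57 (Sod1) and 0.00 (Gpx1). Gpx2 alone of the 16 was called with replicates 1 to 3 alone.

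Of 12 tested cytokines, receptors and signalling genes known to induce DUOX2 or NOS2 in other settings, 7 rose and none fell, with a median of 1.12. Il22 had 0 to 1 counts in WT and 137 to 329 in KSR23, a mean at least 65.9-fold higher than the WT floor of 3 counts per library (edgeR adjusted p = 5.076e-29). Ifng rose from 0.0853 ± 0.122 to 0.628 ± 0.305 CPM (SD over n = 5 libraries each, adjusted p = 0.00167) and Tnf from 0.319 ± 0.191 to 1.44 ± 0.253 CPM (adjusted p = 0.000276). Both stayed below 100 counts in every library. Nfkbiz, which encodes a nuclear regulator of NF-kappaB target genes, rose by 2.20 on the log2 scale (SE 0.38, adjusted p = 8.285e-07). Il22ra1 and Ifngr1, receptor chains for IL-22 and interferon gamma, were also called. With replicates 1 to 3 alone, Il22 and Ifng were called. Il17a, with no more than 3 counts in a library, was not tested. These genes were listed with earlier results of these data known, so their count is not independent evidence of a direction.

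The genes whose levels followed those of Duox2 most closely over the 10 libraries, by Pearson's r of log2 CPM among 9737 genes with a mean above 5 CPM, were Atp2c2 (r = 0.985), B3gnt7 (0.985), Aldh1l1 (0.984), Paqr8 (0.984) and Syne4 (0.982). For Nos2 they were Canx (0.991), Erbb3 (0.989), Tjp1 (0.988), Zdhhc15 (0.988) and Abr (0.987). Duox2 and Nos2 differed between the groups, and r includes that difference. For Nox1 they were Nfatc3 (0.985), Hipk3 (0.965), Edem3 (0.963), Rc3h1 (0.960) and Aim1 (0.956). Nox1 was also called different between the groups, and its libraries with no read share 1 value set by the prior count. For Cybb, whose groups overlap, they were Gm14446 (0.982), Ces2e (0.982), Xkr9 (0.978), Ganc (0.977) and Ogg1 (0.972). No p is attached to these values, since they share libraries, depth and group.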

How the data were processed

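RNA from jejunum was analysed in 5 WT and 5 KSR23 libraries, with groups and replicate numbers taken from the sample titles. Picogram amounts of RNA were primed with oligo-dT, amplified, tagged by transposase and read as single 75-base ends without molecular identifiers or strand marking, so floors cover counting error only. The deposited values were raw counts. The authors aligned reads to mm10 with TopHat2 2.1.0 and counted them per gene with HTSeq 0.6.1p1 (versions per the labels, with strict intersection per the study's methods). The strand setting is not given in the sources used here. Reads that mapped to several places entered no gene.

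Counts were fitted over the 17632 genes that reached 5 counts in some library in edgeR 4.0.16 (R 4.3.3) with TMM factors, group as the only term, the likelihood ratio test the study used, Benjamini-Hochberg adjustment and a threshold of 0.05. The study's wording of its filter on 5 counts can also be read as requiring them in every library, which was run as an alternative. Fold changes are log2 KSR23 over WT. Folds against groups at 3 counts or fewer in each library are bounds against that floor. Ratios used log2 CPM with a prior count of 2 and two-sided exact permutation over 252 splits, adjusted over 7 ratios. The edgeR quasi-likelihood test, DESeq2 1.42.0, other size factors and filters, leaving out each library, a replicate block and a Y-linked covariate were alternatives. Replicates 1 to 3 under the quasi-likelihood test were added after seeing the data.

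Positions are from GENCODE M21, in which 22750 of 24062 symbols (94.5%) were found. Adgre1 and Siglecf were matched through RefSeq synonyms to the older symbols Emr1 and Siglec5, and Ly6g and Cybc1 were not matched to a row through those synonyms and were not analysed here. The members, lists and motifs were chosen with earlier results of these data known. The text names every member, each called gene of a pathway list or the 4 with the largest change where more were called, and the 5 genes most like Duox2, Nos2, Nox1 and Cybb. Other genes named were chosen after their values were seen. Some called genes of the pathway lists are counted but not reported here by name.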

Additional observations from a re-analysis of the deposited data

Results flagged for a closer look

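KSR23 replicate 2 stood apart from its group in both measures that contain Cybb. Its log2 ratio of Cybb to Cyba was -4.05, against -2.86 to -2.49 in the other 4 KSR23 libraries, and its Cybb level minus the macrophage markers was -1.12, against -0.37 to -0.25. In each, the gap to the nearest library exceeded Dixon's 95% limit for 5 samples. In all, 23 groups of 5 values were examined, and chance flags about 1 in 20.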

How the results depend on the processing

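Duox2, Duoxa2, Noxa1 and Nos2 were called higher in each of the 20 or 21 settings that gave them a value. The number of the 10 genes called was 6 to 8 when single libraries were left out and 5 with replicates 1 to 3 alone. It was 4 with replicates 1 to 3 under the quasi-likelihood test and 3 when 5 counts were required in every library, which leaves out Duox1, Duoxa1, Duox2, Nox1 and Nos2 by construction. Over all genes, 3261 were called, 2370 to 3802 with single libraries left out, 579 with replicates 1 to 3 alone, 140 with these under the quasi-likelihood test and 1797 with the Y-linked covariate. Oxidase partners called fell from 2 to 1 with replicates 1 to 3, the replicate block and the Y-linked covariate, and stayed at 2 with libraries left out. Haem peroxidases called fell from 1 to 0 under the quasi-likelihood test, the filter on every library, replicates 1 to 3 and the covariate (0 to 1 with libraries left out). Nitric oxide synthesis genes called went from 2 to 0 (replicates 1 to 3) and 1 (covariate; 1 to 2 with libraries left out). Peroxide removal genes called went from 3 to 6 (library totals), 1 (replicates 1 to 3) and 5 (covariate), and were 3 to 6 with libraries left out. Inducing genes called went from 7 to 4 (filter on every library) and 2 (replicates 1 to 3; 6 to 7 with libraries left out), and marker genes from 15 to 9 and 4 (11 to 17).

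Each ratio in this paragraph is given as its mean log2 value in KSR23 minus that in WT. Duoxa1 to Duox1 and Duox2 to Duox1 were 3.37 and 7.71 with replicates 1 to 3 (2.30 to 3.39 and 7.03 to 7.70 with libraries left out). Noxo1 to Nox1 was -3.15 with a prior count of 0.5 (exact permutation p = 0.0476) and -2.58 to -1.52 with libraries left out, at p = 0.0159 without KSR23 replicate 2. Noxa1 to Nox1 reversed to 0.58 with replicates 1 to 3, to 0.31 without KSR23 replicate 1 and to 0.28 without KSR23 replicate 4, with a lowest value of -0.79 among single libraries left out and -1.33 with a prior count of 0.5. With single libraries left out, Duoxa2 to Duox2 ran from -1.18 to -0.34 (-1.65 with a prior count of 0.5) and Cybb to Cyba from 0.18 to 0.57 (0.12 with replicates 1 to 3). Cybb less the macrophage markers ran from -0.16 to 0.055, and the fold change of Cybb itself from -0.29 to 0.11, both reversed without KSR23 replicate 2. The causes were not tested. Same-numbered libraries did not deviate together in every pair (r from -0.740 to 0.486). These deviations include effects of single libraries such as GC content, so they do not settle whether the numbers pair the samples. With a replicate block, 6 of the 10 genes and 2202 genes in all were called, Noxo1 being lost (adjusted p = 0.1002). Depth limits Duox1, Duoxa1 and Nox1, whose WT counts were at or near 0.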
